A study of Homo sapiens with 12 samples.

Results

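The genes described here are targets of p53, the transcription factor that answers DNA damage and other stress. They were a list of 31 well-known targets, taken by gene symbol and followed with every detected probe. A probe counted as detected where its detection p was below 0.05 in 3 or more of the 12 arrays. Of the 31 genes, 29 had a detected probe, and together they had 42 detected probes of 46 annotated ones, out of 12640 genes and 23313 probes tested in all. The RNA of BTG2 and FDXR was not analysed here. The 4 probes that did not pass were 1 each of BAX, CYFIP2, MDM2 and TP53I3, and each of these genes kept another probe. The list came from general knowledge and was chosen with earlier results of these data known.

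The arrays carried RNA from BJ cells, an established line of human foreskin fibroblasts, in a study of how phosphorylation of EZH2 at threonine 350 affects gene repression. All cells received lentivirus for 72 h and then siRNA for 60 h, in 4 groups of 3 arrays. T350A re-expression combined virus carrying siRNA-resistant EZH2, in which alanine replaces that threonine, with an siRNA against EZH2. EZH2 re-expression combined virus carrying siRNA-resistant EZH2 without that change with the same siRNA. The si-EZH2 group had control virus and the EZH2 siRNA, and the si-Control group had control virus and a control siRNA. Nothing states that the 3 replicates of a group were separate cultures, so p-values measure the spread between these samples, which may be technical. The number of arrays limits the precision.

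EZH2 is the enzyme of Polycomb repressive complex 2, which places a silencing methyl mark on histone H3. In fibroblasts that complex is known for holding down the INK4A/ARF locus, whose ARF product restrains MDM2 and so stabilises p53. p53 binds pairs of a short palindromic decamer near its targets and switches on genes for cell cycle arrest, for both routes of cell death and for DNA repair, together with MDM2, which in turn destroys p53.

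The targeted gene was read by 3 probes, with levels given throughout as normalized log2 intensity. Probe ILMN_1708105 of EZH2 read 5.90, 6.14 and 5.70 in T350A re-expression, 5.86, 5.99 and 5.68 in EZH2 re-expression, 5.56, 5.76 and 5.77 in si-EZH2, and 6.68, 6.96 and 6.72 in si-Control. On this probe all 9 arrays that received the EZH2 siRNA lay below the si-Control arrays. Probe ILMN_1652913 was also lower in si-EZH2, by 0.94, and higher in both re-expression groups than in si-Control. Probe ILMN_2364529 was detected on 0 of the 3 si-EZH2 arrays, so its level there is only bounded. With each si-EZH2 array set to its lowest detected signal, EZH2 on that probe was at least 1.61-fold lower in si-EZH2 than in si-Control (adjusted p = 0.000169; measured means 4.65 and 5.63). On ILMN_2364529 T350A re-expression averaged 7.18 ± 0.14 and EZH2 re-expression 8.48 ± 0.020 (SD, n = 3 each), so the 2 forms did not reach equal RNA levels. Between 20658 and 21910 probes were detected per array, and the median SD between replicates was 0.141 over the 42 probes and 0.153 over all tested probes. All 10 fibroblast markers looked up were detected on all 12 arrays. Of the other cell types, PTPRC, CD3E and LYZ of leukocytes, CDH5, KDR and VWF of endothelium and CDH1, KRT5 and KRT14 of epithelium were detected on 0 arrays, while CD68, TEK, EPCAM, KRT8, KRT18 and KRT19 of the same lists were detected on all 12.

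Where p53 could bind at these genes was looked up in RefSeq promoter windows on GRCh38.p14, which run from 250 bases before to 50 bases after each start. The p53 decamer is a run of purines, then C, a pair of A or T bases, G and a run of pyrimidines, and it is its own reverse complement, so a single scan covers both strands. A full site was counted as a pair of decamers with a spacer of at most 1 base, both with their C and G in place, and at most 2 mismatches elsewhere. Windows were given for 25 of the 31 genes, 38 windows in all. Such a full site lay in 5 of the 38 windows (13.2%), against 187 of all 35116 windows (0.533%). The genes that held one were DDB2, FAS, AEN and MDM2. A single decamer without mismatch lay in 6 of the 38 windows (15.8%), those of PLK2, SESN1, FAS, DDB2, AEN and FDXR, against 6.63% of all windows. A match describes the letters and shows no binding, and a window without a match says nothing of p53 at that gene.

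The stretches of 4 genes are shown because their RNA is followed below, with the matches in capitals and each read 5′ to 3′ up to the start, or to the end of the match where that lies beyond it. DDB2 (chr11:47214724-47214999, plus strand) held 1 of only 7 windows with a full site free of mismatches, at bases 6 to 26 after the start, overlapped by another full site with 1 mismatch. FAS (chr10:88991181-88991430, plus strand) held a site with 2 mismatches at 122 to 103 bases before the start. AEN (chr15:88621090-88621339, plus strand) held one with 2 mismatches at 34 to 15 bases before the start. MDM2 (chr12:68808767-68809016, plus strand) held one with 2 mismatches at 94 to 75 bases before the start. This MDM2 site also lay in a second MDM2 window that overlaps the first. DDB2, FAS and MDM2 each had at least 1 further window, at another start, without a full site.
DDB2: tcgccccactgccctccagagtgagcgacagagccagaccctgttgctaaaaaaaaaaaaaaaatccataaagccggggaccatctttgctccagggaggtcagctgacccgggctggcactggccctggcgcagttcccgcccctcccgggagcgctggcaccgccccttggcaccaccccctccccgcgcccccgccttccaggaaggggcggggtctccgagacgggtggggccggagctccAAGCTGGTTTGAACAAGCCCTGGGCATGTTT
FAS: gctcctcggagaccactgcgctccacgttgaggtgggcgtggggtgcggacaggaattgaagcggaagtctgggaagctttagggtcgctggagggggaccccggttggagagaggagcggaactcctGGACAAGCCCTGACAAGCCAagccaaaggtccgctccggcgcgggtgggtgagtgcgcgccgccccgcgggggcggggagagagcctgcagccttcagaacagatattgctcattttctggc
AEN: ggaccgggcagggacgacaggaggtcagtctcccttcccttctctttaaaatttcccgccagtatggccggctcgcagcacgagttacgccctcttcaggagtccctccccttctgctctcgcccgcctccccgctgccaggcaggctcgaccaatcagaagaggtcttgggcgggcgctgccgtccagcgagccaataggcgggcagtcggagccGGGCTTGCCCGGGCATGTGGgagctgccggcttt
MDM2: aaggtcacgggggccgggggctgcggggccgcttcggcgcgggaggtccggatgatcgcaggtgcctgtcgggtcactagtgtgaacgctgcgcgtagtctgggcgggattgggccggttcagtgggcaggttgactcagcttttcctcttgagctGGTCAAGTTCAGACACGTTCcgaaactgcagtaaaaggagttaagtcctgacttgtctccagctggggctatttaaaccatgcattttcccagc
The windows of the listed genes were also rich in CpG. Their median ratio of observed to expected CpG was 0.792, against 0.579 over all windows, and their median GC content was 64.2% against 58.7%.

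Most of the movement among the p53 targets lay between the EZH2 siRNA groups and si-Control, and most of it was upward. A probe was called where limma's moderated test gave an adjusted p under 0.05, with Benjamini-Hochberg adjustment over the 23313 probes. In EZH2 re-expression minus si-Control 11 of the 42 probes were called (26.2%), where 7.24% of all tested probes were called. Of these, 10 were higher and 1 lower, against 3.6% and 3.64% of all tested probes. Between si-EZH2 and si-Control 6 probes passed (14.3%, against 2.84% of all tested probes), 5 higher in si-EZH2 (against 1.56%) and 1 lower (against 1.29%). In T350A re-expression minus si-Control 2 probes were called (4.76%, against 3.56%), both higher (against 1.75%) and 0 lower (against 1.81%). These 3 comparisons share the same si-Control arrays, so their calls are not independent. In RNA from whole cultures, more RNA per cell and more cells of a kind that carries it cannot be told apart.

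The differences among the 3 groups with the EZH2 siRNA were fewer. EZH2 re-expression minus si-EZH2 had 2 called probes (4.76%, against 2.88% of all tested probes), both higher (against 1.5%) and 0 lower (against 1.38%). T350A re-expression minus si-EZH2 had 0 called by limma, against 0.103% of all tested probes (0.0472% higher and 0.0558% lower). In that comparison 5 of the 42 probes had an unadjusted limma p under 0.05, against 3200 of all 23313 tested probes. T350A re-expression minus EZH2 re-expression also had 0 called by limma, against 0.00858% of all tested probes. Again 5 of the 42 had an unadjusted p under 0.05, against 2050 of all 23313 tested probes. Whether these shares differ from those of all tested probes was not tested. Both counts of 0 stayed at 0 under every alternative that was run, where at most 1.8% and 0.214% of all tested probes were called. Over all 4 groups, limma's F-test called 9 probes of 8 genes, against 6.82% of all tested probes.

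**Figure D1:**
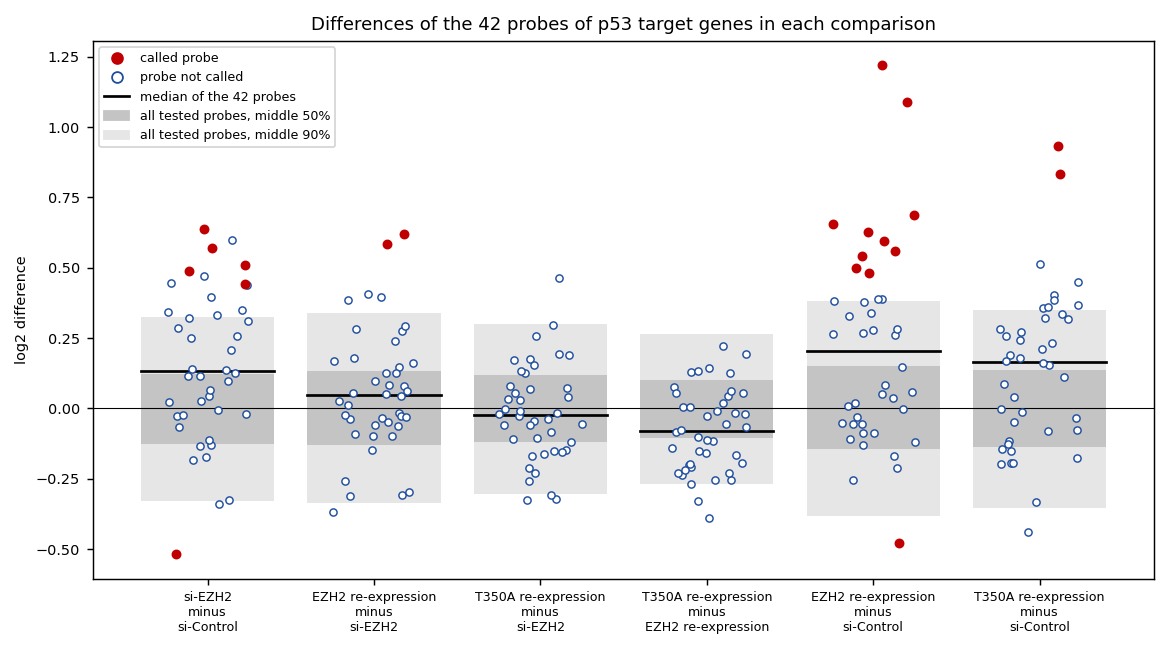
Log2 differences of the 42 probes of p53 target genes in the 6 comparisons, 1 point per probe. Red points are called, the black line is the median of the 42 probes, and grey boxes span the middle 50% and 90% of all 23313 tested probes. The medians are 0.205 and 0.165 for EZH2 and T350A re-expression minus si-Control, 0.131 for si-EZH2 minus si-Control, and between -0.080 and 0.049 among the groups with the EZH2 siRNA. With only the brightest probe of each gene the first 3 are 0.0824, 0.168 and 0.116, in another order.

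The 42 probes as a whole leaned the same way. In EZH2 re-expression minus si-Control the median of the 42 probes was 0.205 on the log2 scale, against 0.0024 over all tested probes. All 3 EZH2 re-expression arrays lay above all 3 si-Control arrays on 16 of the 42 probes (38.1%), against 14.4% of all tested probes, and below them on 3 (7.14%), against 14.2%. In T350A re-expression minus si-Control the median was 0.165 against 0.00041, with 12 probes wholly above (28.6%, against 11.5%) and 4 wholly below (9.52%, against 11.3%). In si-EZH2 minus si-Control the median was 0.131 against -0.0034, with 15 probes wholly above (35.7%, against 10.8%) and 2 wholly below (4.76%, against 10.7%). Counted by array, the median shift from the si-Control mean was 0.093, 0.185 and 0.111 in T350A re-expression, 0.211, 0.160 and 0.127 in EZH2 re-expression, and 0.194, 0.091 and 0.138 in si-EZH2. It was 0.014, -0.0045 and -0.035 on the si-Control arrays themselves. The 42 probes include several of the same gene. With only the brightest probe of each of the 29 genes the medians were 0.168 in T350A re-expression, 0.0824 in EZH2 re-expression and 0.116 in si-EZH2 minus si-Control, so EZH2 re-expression had the largest of the 3 over all probes and the smallest over genes. No test was made of these medians.

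How far these counts hold differed by comparison. Without si-Control replicate 1 the 6 calls of si-EZH2 minus si-Control fell to 0, without si-Control replicate 2 to 3 and without si-Control replicate 3 to 2. The share of all tested probes called fell as well, from 2.84% to 1.7%, 1.98% and 1.89%. For EZH2 re-expression minus si-Control, leaving out any 1 array left between 8 and 12 calls, with 3.53% to 7.29% of all tested probes called. For EZH2 re-expression minus si-EZH2 the 2 calls fell to 0 without si-EZH2 replicate 1 or 3 or EZH2 re-expression replicate 1 or 2, and to 1 without EZH2 re-expression replicate 3. In these fits the share of all tested probes called fell from 2.88% to between 0.871% and 1.15%. For T350A re-expression minus si-Control the count was 6 without si-EZH2 replicate 2 (against 3.65% of all tested probes). The F-test's count was 5 without si-Control replicate 2 (against 4.8%) or 3 (against 3.74%). Each array lay on its own section of 1 chip, and sections ran partly with the groups, T350A re-expression holding positions 2, 4 and 12, EZH2 re-expression 9, 10 and 11, si-EZH2 5, 7 and 8, and si-Control 1, 3 and 6. With section as a covariate the calls were 3 for EZH2 re-expression minus si-Control (7.14%, against 1.21% of all tested probes in that fit), 1 for si-EZH2 minus si-Control (2.38%, against 1.65%), 0 for EZH2 re-expression minus si-EZH2 (against 1.52%) and 2 for T350A re-expression minus si-Control (4.76%, against 2.56%). In EZH2 re-expression minus si-Control the calls of AEN, TNFRSF10B and CYFIP2 on ILMN_1677200 held in that fit. Those of DDB2, SESN1, PMAIP1, FAS, XPC, both GADD45A probes and the dimmer CYFIP2 probe were lost there, with adjusted p of 0.0775 to 0.364. In si-EZH2 minus si-Control CYFIP2 on ILMN_1677200 kept its call in that fit and GADD45A, SESN1, PMAIP1, RRM2B and CCNG1 lost theirs. Under median scaling the calls of si-EZH2 minus si-Control split into 2 higher and 1 lower (2.83% of all tested probes being called). In the authors' own normalized values they split into 10 higher and 0 lower (against 4.73%).

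**Figure D2:**
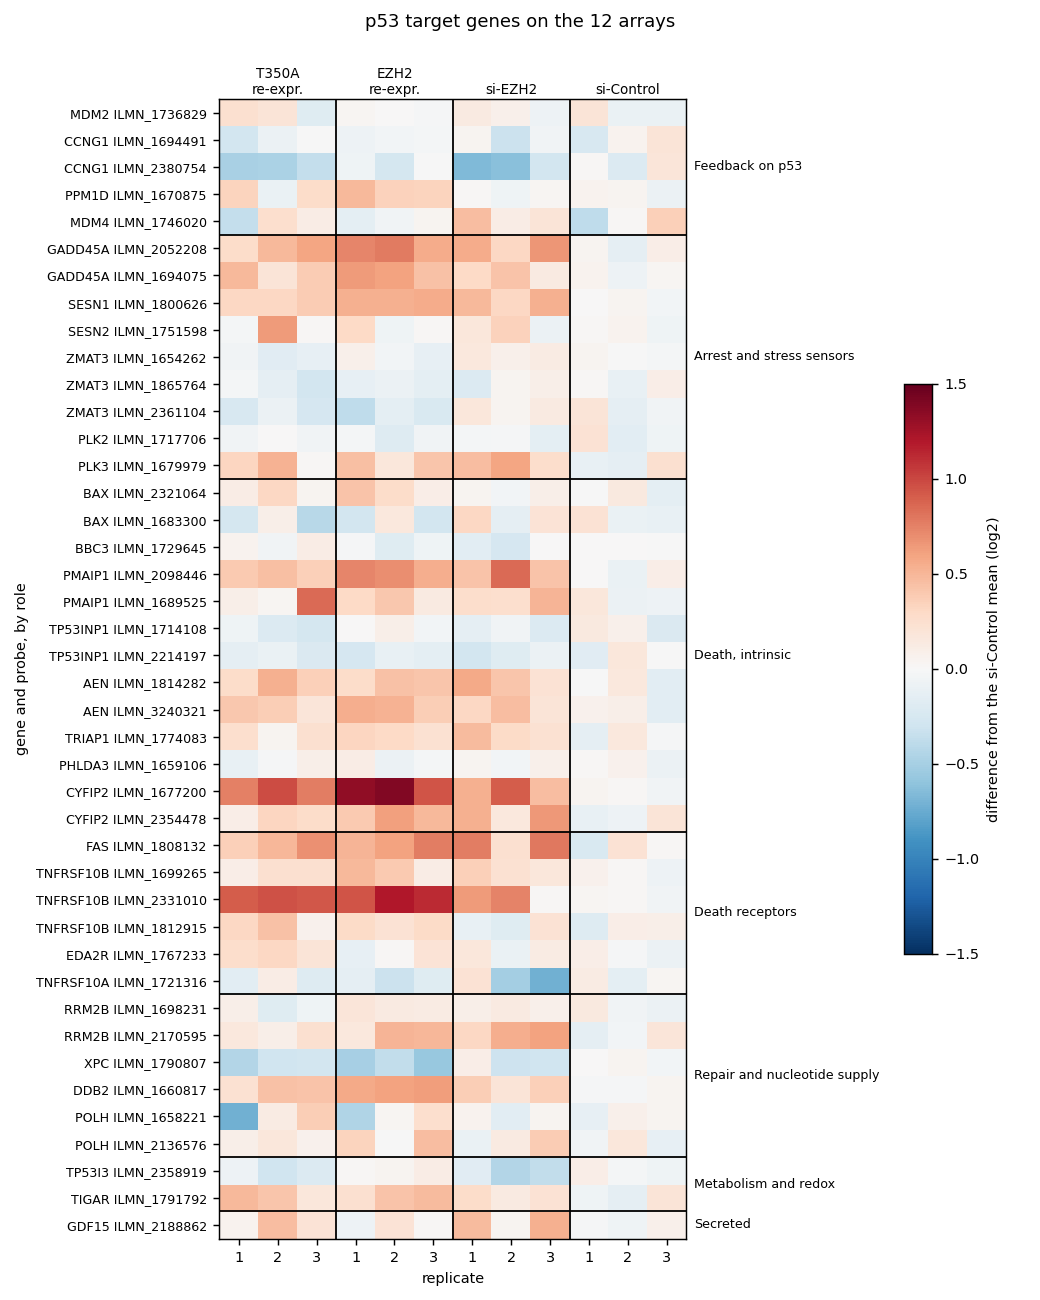
Each of the 42 probes of p53 target genes (rows, grouped by role) on each of the 12 arrays (columns), as the log2 difference from that probe's mean over the 3 si-Control arrays. Red is higher and blue lower. CYFIP2 probe ILMN_1677200 and TNFRSF10B probe ILMN_2331010 hold the deepest reds, reaching 9.55 and 7.14 in EZH2 re-expression replicate 2, against 8.10 to 8.20 and 5.88 to 5.97 in si-Control.

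Of the 5 probes of regulators that feed back on p53, 1 was called, in si-EZH2 minus si-Control, where 2.84% of all tested probes were called. So few probes cannot show whether this role moved less than the others. MDM2, the ubiquitin ligase that destroys p53, read 6.13, 6.09 and 5.71 in T350A re-expression, 5.93, 5.90 and 5.88 in EZH2 re-expression, 6.03, 5.97 and 5.82 in si-EZH2, and 6.09, 5.79 and 5.80 in si-Control. Its 4 groups overlapped. EZH2 re-expression minus si-Control was 0.01 ± 0.12 for MDM2 (SE, 95% interval -0.25 to 0.27, adjusted p = 0.976). Its promoter stretch above holds a full p53 site. The interval includes 0.205, the median of the 42 probes in that comparison. It ends below 0.48, the smallest called rise there, but the threshold for a call sets that value. The probe is dim, and the other MDM2 probe was detected on 0 arrays. Whether MDM2 differed from the other targets was not tested. MDM4, the relative of MDM2 that blocks p53's activation domain, was near the floor of detected signal (4.90 to 4.98) and had no called difference, with values between 4.88 and 5.73 over the 12 arrays.

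PPM1D encodes the phosphatase that removes activating phosphates from p53 and from damage kinases. It read 8.41, 7.96 and 8.34 in T350A re-expression, 8.55, 8.42 and 8.40 in EZH2 re-expression, 8.09, 8.002 and 8.10 in si-EZH2, and 8.12, 8.10 and 7.98 in si-Control. The EZH2 re-expression arrays were the highest, except that T350A re-expression replicate 1 (8.41) exceeded EZH2 re-expression replicate 3 (8.40). EZH2 re-expression minus si-Control was 0.39 ± 0.12 (adjusted p = 0.0547), just short of a call. CCNG1, cyclin G1, which brings a phosphatase to MDM2, had a bright probe, ILMN_1694491, with no called difference and values of 12.09 to 12.60. Its dim probe ILMN_2380754 read 5.15, 5.16 and 5.28 in T350A re-expression, 5.57, 5.37 and 5.63 in EZH2 re-expression, 4.97, 5.01 and 5.36 in si-EZH2, and 5.65, 5.44 and 5.82 in si-Control. On that probe si-EZH2 fell by 0.52 ± 0.13 relative to si-Control (adjusted p = 0.0421), close to the floor and detected on 2 of the 3 si-EZH2 arrays. The bright probe differed by -0.11 ± 0.13 in the same comparison, so the probes of CCNG1 disagree. The call on the dim probe was lost without any 1 array other than si-Control replicate 2, si-EZH2 replicate 3 or EZH2 re-expression replicate 2, with adjusted p of 0.0504 to 0.157.

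Among the genes of arrest and stress sensing, GADD45A and SESN1 rose and the others did not pass the test. GADD45A encodes a stress sensor that binds PCNA and cell cycle kinases. Its brighter probe ILMN_2052208 read 9.46, 9.67 and 9.78 in T350A re-expression, 9.91, 9.96 and 9.74 in EZH2 re-expression, 9.74, 9.49 and 9.84 in si-EZH2, and 9.22, 9.04 and 9.28 in si-Control. All 9 arrays with the EZH2 siRNA lay above all 3 si-Control arrays. Called probes were picked through these same arrays, so such separations, here and below, are descriptions and add no support. GADD45A rose by 0.69 ± 0.12 in EZH2 re-expression (1.61-fold, adjusted p = 0.00391) and by 0.51 ± 0.12 in si-EZH2 (adjusted p = 0.0344) relative to si-Control. T350A re-expression minus si-Control was 0.45 ± 0.12 (adjusted p = 0.0532), which missed the threshold. The si-EZH2 call was lost without any 1 si-Control array or without si-EZH2 replicate 1 or 3, with adjusted p of 0.057 to 0.139. The second probe, ILMN_1694075, also had its highest mean in EZH2 re-expression and its lowest in si-Control, and was called in EZH2 re-expression minus si-Control only, at 0.56 ± 0.11 (adjusted p = 0.0077). On ILMN_1694075 the 3 groups with the EZH2 siRNA also lay wholly above si-Control, between 8.89 and 9.39 against 8.68 to 8.80.

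SESN1, one of the sestrins, which restrain growth signalling under stress, read 8.33, 8.33 and 8.40 in T350A re-expression, 8.55, 8.55 and 8.58 in EZH2 re-expression, 8.50, 8.32 and 8.56 in si-EZH2, and 8.02, 8.06 and 7.97 in si-Control. Here too no array with the EZH2 siRNA overlapped si-Control. SESN1 rose by 0.54 ± 0.094 in EZH2 re-expression (adjusted p = 0.00348) and by 0.44 ± 0.094 in si-EZH2 (adjusted p = 0.0171), and T350A re-expression minus si-Control was 0.33 ± 0.094 (adjusted p = 0.0628). Its si-EZH2 call was lost without si-Control replicate 1 or 3 or si-EZH2 replicate 1 or 3, with adjusted p of 0.0558 to 0.0812. A SESN1 promoter window (chr6:109008939-109009238, minus strand) holds a single decamer, 49 to 40 bases before its start, and the other SESN1 windows hold no match. SESN2, its sister gene, had no called difference, and a single array, T350A re-expression replicate 2 at 6.96, stood above its other 11 values of 6.23 to 6.66. ZMAT3, an RNA-binding zinc finger protein, was bright on 3 probes (11.48 to 12.51) with no called difference, and its largest was -0.37 ± 0.11 on ILMN_2361104 for EZH2 re-expression minus si-EZH2 (adjusted p = 0.0865). PLK2 and PLK3, kinases of the polo family, had no called difference. PLK3 sat at 5.58 to 5.91 in si-EZH2 and 5.19 to 5.56 in si-Control, a difference of 0.44 ± 0.15 (adjusted p = 0.132).

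The genes grouped here under the mitochondrial, intrinsic route to death include CYFIP2, which had the largest difference of the list in EZH2 re-expression minus si-Control. In that comparison 4 of the group's 13 probes, of 3 of its 8 genes, were called, against 7.24% of all tested probes. BAX and BBC3 of that route were not called. CYFIP2, a subunit of the actin-regulating WAVE complex and a target that p53 induces, had ILMN_1677200 as its brighter probe. That probe read 8.91, 9.13 and 8.93 in T350A re-expression, 9.49, 9.55 and 9.10 in EZH2 re-expression, 8.69, 9.07 and 8.63 in si-EZH2, and 8.20, 8.18 and 8.10 in si-Control. Every array with the EZH2 siRNA lay above si-Control, and the EZH2 re-expression arrays lay above all si-EZH2 arrays. Relative to si-Control CYFIP2 rose by 1.22 ± 0.14 in EZH2 re-expression (2.33-fold, adjusted p = 0.000121), by 0.83 ± 0.14 in T350A re-expression (1.78-fold, adjusted p = 0.00472) and by 0.64 ± 0.14 in si-EZH2 (1.55-fold, adjusted p = 0.0188). EZH2 re-expression was also higher than si-EZH2, by 0.58 ± 0.14 (adjusted p = 0.0351). The call of EZH2 re-expression against si-Control held under all 25 alternatives, and with chip section as a covariate CYFIP2 was still called there at 1.26 (adjusted p = 0.00802). The call of si-EZH2 against si-Control was lost without si-Control replicate 1, 2 or 3 or si-EZH2 replicate 2, with adjusted p of 0.0523 to 0.0861. That of EZH2 re-expression against si-EZH2 was lost without si-EZH2 replicate 1 or 3 or EZH2 re-expression replicate 1 or 2, with adjusted p of 0.122 to 0.142.

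The dimmer CYFIP2 probe, ILMN_2354478, read 6.71, 6.94 and 6.90 in T350A re-expression, 7.01, 7.23 and 7.11 in EZH2 re-expression, 7.15, 6.77 and 7.27 in si-EZH2, and 6.51, 6.53 and 6.80 in si-Control. It was called only in EZH2 re-expression minus si-Control, at 0.50 ± 0.13 (adjusted p = 0.0347). Its groups were less separate than those of the brighter probe, and T350A re-expression and si-EZH2 both overlapped si-Control. Without si-Control replicate 1 or 2, or without any 1 EZH2 re-expression array, this call was lost, with adjusted p of 0.0573 to 0.124.

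PMAIP1, a BH3-only protein that frees the death effectors from their inhibitors, had 2 detected probes. The brighter, ILMN_2098446, read 8.46, 8.51 and 8.43 in T350A re-expression, 8.79, 8.76 and 8.60 in EZH2 re-expression, 8.49, 8.92 and 8.50 in si-EZH2, and 8.07, 7.97 and 8.16 in si-Control. The 9 arrays with siRNA against EZH2 again lay above si-Control without overlap. PMAIP1 rose by 0.65 ± 0.12 in EZH2 re-expression (adjusted p = 0.00468) and by 0.57 ± 0.12 in si-EZH2 (1.48-fold, adjusted p = 0.0161), and T350A re-expression minus si-Control was 0.40 ± 0.12 (adjusted p = 0.0774). The si-EZH2 call was lost without si-Control replicate 1 or 2 or si-EZH2 replicate 2, with adjusted p of 0.0535 to 0.0677. The dimmer probe ILMN_1689525 was not called, with 0.28 ± 0.18 and 0.34 ± 0.18 in the first 2 of these comparisons.

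AEN, an exonuclease that p53 induces and that degrades DNA and RNA in dying cells, had 2 detected probes. The dimmer, ILMN_3240321, read 8.55, 8.51 and 8.33 in T350A re-expression, 8.70, 8.67 and 8.52 in EZH2 re-expression, 8.45, 8.61 and 8.33 in si-EZH2, and 8.21, 8.24 and 7.99 in si-Control. Every array with the EZH2 siRNA was above si-Control. It rose by 0.48 ± 0.11 in EZH2 re-expression (adjusted p = 0.0181), a call lost without si-Control replicate 3 or EZH2 re-expression replicate 1 or 2, with adjusted p of 0.0664 to 0.0798. The brighter probe ILMN_1814282 was higher than si-Control by 0.38 to 0.40 in all 3 groups, with adjusted p of 0.0669 to 0.0947, none of which passed.

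Other genes of this route did not pass the test in any comparison. BAX, the pore former of the mitochondrial membrane, read between 10.84 and 11.41 on its brighter probe, and EZH2 re-expression minus si-Control was 0.27 ± 0.12 (adjusted p = 0.183). BBC3, another BH3-only protein, read 7.11 to 7.47 over all arrays, with intervals inside -0.35 to 0.38 in all 6 comparisons. TRIAP1, a small inhibitor of apoptosis, was 0.33 ± 0.11 above si-Control in si-EZH2 (adjusted p = 0.129). PHLDA3, which competes with AKT for membrane lipids, had all 12 values between 9.48 and 9.71, and its 3 differences from si-Control lay between -0.01 and 0.02. TP53INP1, which promotes autophagy and death, had 2 probes whose differences from si-Control lay between -0.18 and 0.02.

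**Figure D3:**
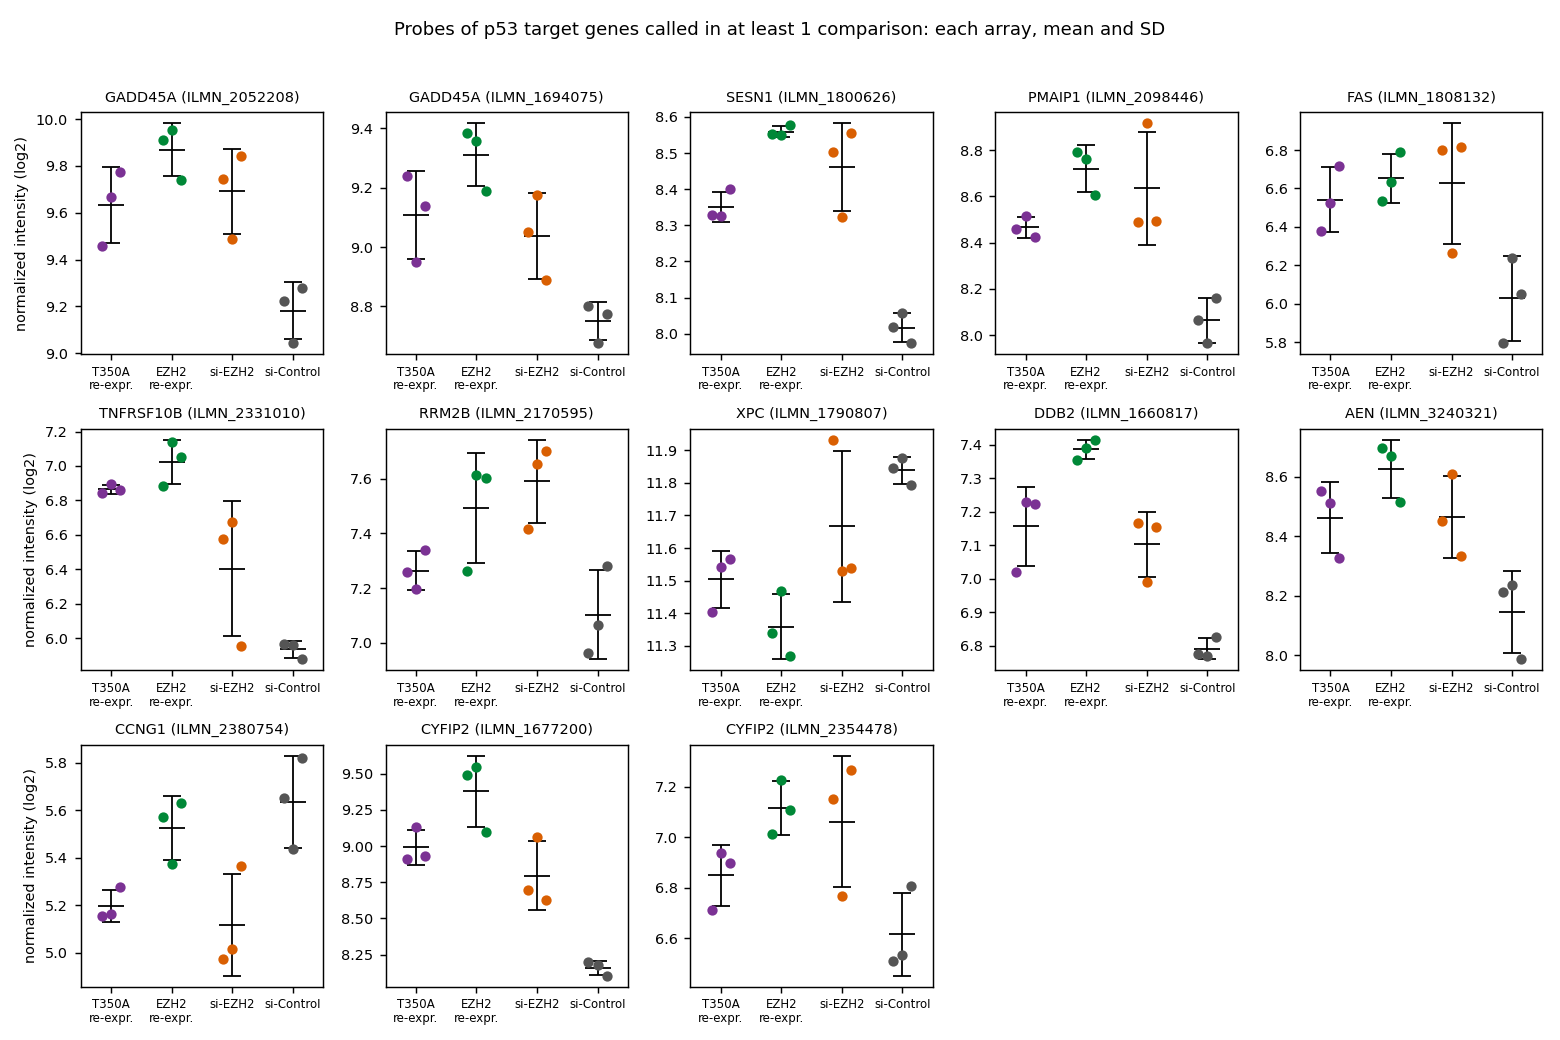
The 13 probes of 11 p53 target genes called in at least 1 comparison, with normalized log2 intensity on a separate vertical axis for each probe. Points are arrays, and the long and short bars are the mean and SD of 3 arrays. On GADD45A, SESN1, PMAIP1, FAS, DDB2, AEN and CYFIP2 probe ILMN_1677200, all points of T350A re-expression, EZH2 re-expression and si-EZH2 lie above all si-Control points. The probes were picked by calls that use these same arrays, so this separation is a description.

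The death receptors, which start the extrinsic route, moved on single probes. TNFRSF10B encodes a receptor for the ligand TRAIL. Its probe ILMN_2331010 read 6.84, 6.89 and 6.86 in T350A re-expression, 6.88, 7.14 and 7.05 in EZH2 re-expression, 6.58, 6.68 and 5.95 in si-EZH2, and 5.97, 5.96 and 5.88 in si-Control. Both re-expression groups lay wholly above si-EZH2 and si-Control, while si-EZH2 replicate 3 sat among the si-Control arrays. On that probe TNFRSF10B rose by 1.09 ± 0.15 in EZH2 re-expression (2.13-fold, adjusted p = 0.000616) and by 0.93 ± 0.15 in T350A re-expression (1.91-fold, adjusted p = 0.00411) relative to si-Control, and si-EZH2 minus si-Control was 0.47 ± 0.15 (adjusted p = 0.117). EZH2 re-expression was 0.62 ± 0.15 above si-EZH2 (adjusted p = 0.0378). Without si-EZH2 replicate 3 that difference was 0.40 (adjusted p = 0.112), and the call was also lost without si-EZH2 replicate 1 or any 1 EZH2 re-expression array, with adjusted p of 0.0621 to 0.131.

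The other probes of TNFRSF10B were not called. The brightest, ILMN_1699265, read 11.08, 11.21 and 11.22 in T350A re-expression, 11.46, 11.37 and 11.09 in EZH2 re-expression, 11.33, 11.21 and 11.15 in si-EZH2, and 11.04, 10.99 and 10.90 in si-Control. Its differences from si-Control were smaller, at 0.19 ± 0.11 for T350A re-expression, 0.33 ± 0.11 for EZH2 re-expression (adjusted p = 0.086) and 0.25 ± 0.11 for si-EZH2. The third probe, ILMN_1812915, differed from si-Control by 0.27 ± 0.13 in T350A re-expression, 0.26 ± 0.13 in EZH2 re-expression and -0.03 ± 0.13 in si-EZH2. Which transcripts each probe reads was not analysed here, so the large values apply to what ILMN_2331010 reads and not to the gene as a whole.

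FAS encodes the receptor for FAS ligand, and its promoter stretch is shown above. It read 6.38, 6.53 and 6.72 in T350A re-expression, 6.54, 6.63 and 6.79 in EZH2 re-expression, 6.80, 6.26 and 6.81 in si-EZH2, and 5.80, 6.24 and 6.05 in si-Control. All 9 arrays with the EZH2 siRNA lay above si-Control, by a narrow margin at si-EZH2 replicate 2 (6.26 against 6.24). FAS rose by 0.63 ± 0.16 in EZH2 re-expression (adjusted p = 0.0245). The differences of 0.60 ± 0.16 in si-EZH2 (adjusted p = 0.0513) and 0.51 ± 0.16 in T350A re-expression (adjusted p = 0.0817) did not pass. The call was lost without si-Control replicate 1 or 3, or EZH2 re-expression replicate 2 or 3, with adjusted p of 0.0652 to 0.105. TNFRSF10A, the other TRAIL death receptor, and EDA2R, the receptor for an ectodysplasin form, had no called difference. On TNFRSF10A the si-EZH2 arrays spread from 5.46 to 6.39, wider than any other group of that probe.

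Repair genes moved in both directions. DDB2, the subunit that recognises UV damage, read 7.02, 7.23 and 7.22 in T350A re-expression, 7.36, 7.39 and 7.41 in EZH2 re-expression, 7.16, 6.99 and 7.15 in si-EZH2, and 6.78, 6.77 and 6.83 in si-Control. The EZH2 re-expression arrays were the highest and the si-Control arrays the lowest, with no overlap between either and any other group. DDB2 rose by 0.60 ± 0.097 in EZH2 re-expression relative to si-Control (1.51-fold, adjusted p = 0.00245), and this call held when any 1 array was left out but was lost with chip section as a covariate (0.52, adjusted p = 0.0785). T350A re-expression minus si-Control was 0.37 ± 0.097 (adjusted p = 0.0501) and si-EZH2 minus si-Control 0.31 ± 0.097 (adjusted p = 0.109). The DDB2 window shown above holds a full p53 site free of mismatches.

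XPC, which recognises distorted DNA in nucleotide excision repair, was the only called gene of the list lower in EZH2 re-expression. It read 11.40, 11.54 and 11.57 in T350A re-expression, 11.34, 11.47 and 11.27 in EZH2 re-expression, 11.93, 11.53 and 11.54 in si-EZH2, and 11.85, 11.88 and 11.79 in si-Control. Both re-expression groups lay wholly below si-Control, and si-EZH2 replicate 1 lay above every other array. XPC fell by 0.48 ± 0.12 in EZH2 re-expression relative to si-Control (adjusted p = 0.0223), and T350A re-expression minus si-Control was -0.33 ± 0.12 (adjusted p = 0.127). The call was lost without any 1 si-Control array or without EZH2 re-expression replicate 1 or 3, with adjusted p of 0.0533 to 0.0863.

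RRM2B, the ribonucleotide reductase subunit that supplies nucleotides for repair, was called on its dimmer probe. ILMN_2170595 read 7.26, 7.20 and 7.34 in T350A re-expression, 7.26, 7.61 and 7.60 in EZH2 re-expression, 7.42, 7.65 and 7.70 in si-EZH2, and 6.96, 7.06 and 7.28 in si-Control. The si-EZH2 arrays lay above si-Control and above T350A re-expression. RRM2B rose by 0.49 ± 0.12 in si-EZH2 relative to si-Control (adjusted p = 0.0481), a call lost without any 1 array other than si-Control replicate 3, si-EZH2 replicate 1 or EZH2 re-expression replicate 1, with adjusted p of 0.0557 to 0.168. Its brighter probe ILMN_1698231 gave 0.10 ± 0.10 in the same comparison (adjusted p = 0.709). POLH, the polymerase that copies past UV lesions, had no called difference on 2 dim probes, and its arrays spread widely on ILMN_1658221, from 5.62 to 6.70 within T350A re-expression.

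The genes of metabolism and the secreted member did not pass the test. TP53I3, a quinone oxidoreductase, read 9.26, 9.03 and 9.13 in T350A re-expression, 9.35, 9.38 and 9.45 in EZH2 re-expression, 9.17, 8.90 and 8.96 in si-EZH2, and 9.43, 9.30 and 9.27 in si-Control. The si-EZH2 arrays lay below both EZH2 re-expression and si-Control. Its differences were 0.39 ± 0.10 for EZH2 re-expression minus si-EZH2 (adjusted p = 0.062) and -0.33 ± 0.10 for si-EZH2 minus si-Control (adjusted p = 0.12). TIGAR, which lowers glycolysis, was 0.38 ± 0.12 above si-Control in EZH2 re-expression (adjusted p = 0.0669). GDF15, a secreted stress cytokine, read 10.68 to 11.30 over the 12 arrays, and its largest difference was 0.35 ± 0.14 for si-EZH2 minus si-Control (adjusted p = 0.227).

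**Figure D4:**
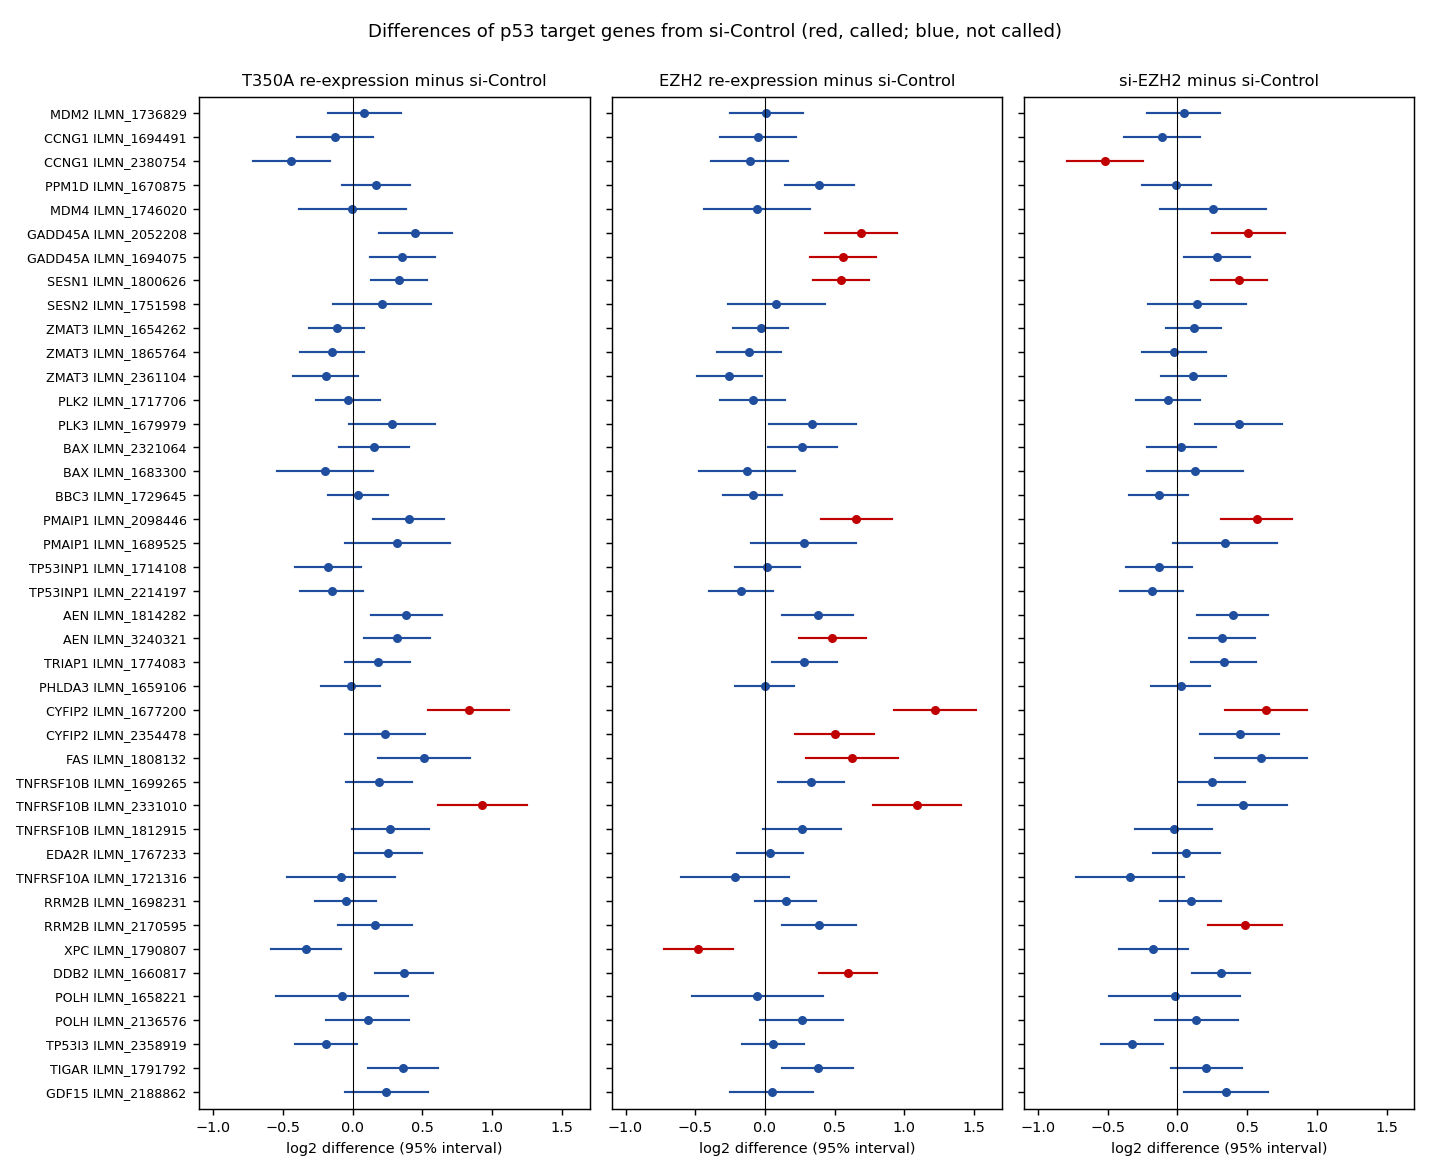
Log2 differences of the 42 probes of p53 target genes from si-Control, with 95% limma intervals, for T350A re-expression, EZH2 re-expression and si-EZH2. Red points are called and blue points are not. CYFIP2 probe ILMN_1677200 (0.83 and 1.22) and TNFRSF10B probe ILMN_2331010 (0.93 and 1.09) are red with T350A and EZH2 re-expression, and MDM2 lies at 0.09, 0.01 and 0.04.

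The series asks whether EZH2 put back into cells depleted of it returns genes toward si-Control, and whether its T350A form does so. None of the 5 probes that rose in si-EZH2 relative to si-Control was called lower in either re-expression group relative to si-EZH2. Of all tested probes 1.38% were called lower in EZH2 re-expression and 0.0558% in T350A re-expression, so 0 of 5 probes cannot answer the question. EZH2 re-expression minus si-EZH2 was 0.58 ± 0.14 for CYFIP2, 0.18 ± 0.12 for GADD45A on ILMN_2052208, 0.10 ± 0.094 for SESN1, 0.08 ± 0.12 for PMAIP1 and -0.10 ± 0.12 for RRM2B on ILMN_2170595. T350A re-expression minus si-EZH2 was 0.19 ± 0.14, -0.06 ± 0.12, -0.11 ± 0.094, -0.17 ± 0.12 and -0.33 ± 0.12 for the same probes, with adjusted p from 0.262 to 0.877. The 1 probe called lower in si-EZH2, CCNG1 ILMN_2380754, was 0.41 ± 0.13 higher in EZH2 re-expression than in si-EZH2 (limma adjusted p = 0.103). Its difference in T350A re-expression minus si-EZH2 was 0.08 ± 0.13 (adjusted p = 0.837), and this probe is close to the floor. The 5 probes were picked for being high in si-EZH2, and that of CCNG1 for being low. These differences use the same si-EZH2 arrays, so their values are a description.

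Set directly against each other, the 2 forms of EZH2 gave no called difference on any of the 42 probes. The largest was CYFIP2 on ILMN_1677200, at -0.39 ± 0.14 for T350A re-expression minus EZH2 re-expression (95% interval -0.68 to -0.10, adjusted p = 0.454). The values leaned to lower in T350A re-expression, with 28 of the 42 probes below 0 and a median of -0.080, against -0.0014 over all tested probes. All 3 T350A re-expression arrays lay below all 3 EZH2 re-expression arrays on 8 probes (19%), against 7.31% of all tested probes, and above them on 0 (against 7.3%). The 8 were probes of SESN1, PMAIP1, DDB2, RRM2B, TP53I3, TP53INP1, CCNG1 and CYFIP2. EZH2 itself was called lower in T350A re-expression on 1 of its 3 probes, by 1.29 ± 0.12 on ILMN_2364529 (adjusted p = 0.000254). The difference was -0.56 ± 0.13 on ILMN_1652913 (adjusted p = 0.211). On ILMN_1708105 the 2 groups overlapped, at 5.70 to 6.14 in T350A re-expression and 5.68 to 5.99 in EZH2 re-expression. The amount of EZH2 RNA and its form cannot be told apart in these groups. T350A re-expression minus si-EZH2 had 2 probes wholly above (4.76%, against 9.12%) and 3 wholly below (7.14%, against 9.49%), and EZH2 re-expression minus si-EZH2 had 10 wholly above (23.8%, against 12.5%) and 3 wholly below (7.14%, against 12.5%).

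Genes around p53 that are not on the list were read as well. CDKN1A, the cyclin-dependent kinase inhibitor through which p53 arrests the cell cycle, read 13.73, 13.91 and 13.61 in T350A re-expression, 13.93, 13.94 and 13.91 in EZH2 re-expression, 13.74, 13.75 and 13.80 in si-EZH2, and 13.47, 13.66 and 13.32 in si-Control on ILMN_1784602. Both EZH2 re-expression and si-EZH2 lay wholly above si-Control. CDKN1A rose by 0.44 ± 0.11 in EZH2 re-expression relative to si-Control (adjusted p = 0.0238), and si-EZH2 minus si-Control was 0.29 ± 0.11 (adjusted p = 0.198). Its dim probe ILMN_1787212 was not called, with 0.26 ± 0.16 and 0.43 ± 0.16 in these comparisons. Of 27 listed genes of p53 control, 22 had detected probes, 35 in all. In EZH2 re-expression minus si-Control 2 of the 35 were called higher and 1 lower (8.57%, against 7.24% of all tested probes). In T350A re-expression minus si-Control 1 was called higher and 1 lower (5.71%, against 3.56%). In si-EZH2 minus si-Control 0 were called by limma (against 2.84%). There 7 of the 35 had an unadjusted p under 0.05, against 3703 of all 23313 tested probes.

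CDKN2A, the INK4A/ARF gene named in the background, had 2 dim probes that disagreed. On ILMN_1717714 all 9 arrays with the EZH2 siRNA lay above si-Control. That probe read 6.08, 6.25 and 6.21 in T350A re-expression, 6.26, 6.03 and 5.98 in EZH2 re-expression, 5.92, 5.73 and 5.63 in si-EZH2, and 5.58, 5.51 and 5.23 in si-Control. On it CDKN2A rose by 0.74 ± 0.12 in T350A re-expression (adjusted p = 0.00472) and by 0.65 ± 0.12 in EZH2 re-expression (adjusted p = 0.00549) relative to si-Control, and si-EZH2 minus si-Control was 0.32 ± 0.12 (adjusted p = 0.191). The other probe, ILMN_1744295, was not called, with differences from si-Control of 0.09 ± 0.14, 0.12 ± 0.14 and -0.02 ± 0.14 in T350A re-expression, EZH2 re-expression and si-EZH2, and its groups overlapped. EP300, an acetyltransferase that acts with p53, fell by 0.80 ± 0.13 in EZH2 re-expression (adjusted p = 0.00199) and by 0.49 ± 0.13 in T350A re-expression (adjusted p = 0.0459) relative to si-Control, and by 0.67 ± 0.13 in EZH2 re-expression relative to si-EZH2 (adjusted p = 0.0126). TP53BP2, which steers p53 toward death genes, rose by 0.46 ± 0.11 in EZH2 re-expression relative to si-Control on its dim probe ILMN_2270299 (adjusted p = 0.0168). Its bright probe ILMN_1779706 differed by 0.12 ± 0.11 in that comparison (adjusted p = 0.531).

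A further 40 p53 targets outside the list had 45 detected probes of 32 genes. In EZH2 re-expression minus si-Control 4 were called higher (BLOC1S2, CDKN1A, NOTCH1 and TP53TG1) and 2 lower, both of IGFBP3, a secreted binder of insulin-like growth factors (13.3% in all, against 7.24% of all tested probes). In si-EZH2 minus si-Control 1 was called higher, FBXW7, a subunit of a ubiquitin ligase, by 0.50 ± 0.11 on 1 of its 3 probes, ILMN_1754279 (adjusted p = 0.0283), and 1 lower, CMBL (4.44% in all, against 2.84%). In T350A re-expression minus si-Control NOTCH1 and TP53TG1 were called higher, by 0.73 ± 0.12 (adjusted p = 0.00411) and 0.59 ± 0.14 (adjusted p = 0.0303), which is 4.44% of the probes, against 3.56%. In EZH2 re-expression minus si-EZH2 2 were called higher (BLOC1S2 and TP53TG1) and 3 lower (both IGFBP3 probes and SUSD6), or 11.1% against 2.88%. The medians of the 45 probes were 0.050, 0.058 and 0.072 in EZH2 re-expression, T350A re-expression and si-EZH2 minus si-Control, smaller than those of the 42 probes of the list, a difference that was not tested.

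Summed marker levels differed between the groups in places. The 10 fibroblast markers summed, on the log2 scale, to 17.35 to 17.41 in T350A re-expression, 17.31 to 17.36 in EZH2 re-expression, 17.47 to 17.50 in si-EZH2 and 17.43 to 17.47 in si-Control, so both re-expression groups lay wholly below si-Control and si-EZH2. Of their 17 probes 0 were called by limma in any comparison, with at most 6 at an unadjusted p under 0.05, in EZH2 re-expression minus si-EZH2. In that comparison 4291 of all 23313 tested probes had an unadjusted p under 0.05. KRT19, an epithelial keratin that these cells carry, was 0.50 ± 0.091 higher in EZH2 re-expression than in si-EZH2 (adjusted p = 0.00887) and 0.32 ± 0.091 higher than in si-Control (adjusted p = 0.0461). EPCAM on ILMN_2160210 fell by 0.62 ± 0.11 in T350A re-expression relative to si-Control (adjusted p = 0.0055). Of the 7 epithelial markers 4 were detected. The summed level of all 7, on the log2 scale, was 12.19 to 12.23 in T350A re-expression and 12.41 to 12.52 in EZH2 re-expression. It was 11.95 to 12.05 in si-EZH2 and 12.13 to 12.27 in si-Control. Linear values were summed, so KRT19, at 11.78 to 12.38 over the 12 arrays, makes up most of this sum. CDH1, which defines epithelium, was at 0 detected arrays in every group. The part of these markers in the results above was not tested.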

How the data were processed

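Total RNA was labelled as biotinylated cRNA with an Ambion MessageAmp kit and hybridised to Illumina arrays, per the labels' protocols. The authors deposited a non-normalized table with 1 intensity and 1 detection p-value per probe and array for 47231 probes, per the file headers. A second deposited table held the authors' normalized intensity for 47229 probes on a linear scale, and how they were normalized is not given in the sources used here. Every value column matched 1 sample by name, leaving 0 unmatched. Symbols came from the deposited probe annotation, 30113 probes having 1 symbol, 8 several and 17110 none.

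Intensities were corrected for background by normexp, with the background estimated through the detection p-values and 16 added as an offset, then quantile-normalized and log2-transformed (limma 3.58.1, R 4.3.3). The 23313 probes whose detection p was below 0.05 in 3 or more of 12 arrays were tested. One linear model with a mean per group was fitted to the 12 arrays, with 8 residual and 7.29 prior degrees of freedom, and limma's moderated test, 2-sided, gave 6 comparisons, adjusted by Benjamini-Hochberg over all tested probes. Errors on differences are limma standard errors.

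All 31 listed genes could be named, with values on each array for every probe called in any comparison. Of the other genes of the pathway, CDKN1A, EZH2 and any called gene could be named. The members and lists were chosen with earlier results of these data known. The fit was tested on simulated data. Replicate numbers did not pair the arrays (correlations of -0.036 to 0.071 over 18 same-numbered pairs of arrays). Alternatives were other background, scaling, filters and moderation, the authors' values, 1 probe per gene, a minimum fold of 1.2, chip section as a covariate, the replicate number as a block, only the groups compared, and leaving out each array. Promoter windows came from RefSeq on GRCh38.p14.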

Additional observations from a re-analysis of the deposited data

How the results depend on the processing

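The 21 called differences of the listed genes were recomputed under up to 25 alternatives, which gave 398 kept calls, 118 lost calls and 0 changes of direction. Percentages in brackets below are the share of all tested probes called in the same fit, which moved as well. Called probes for EZH2 re-expression minus si-Control numbered 11 (7.24%). They were 18 in the authors' values (11%), 3 with chip section as a covariate (1.21%) and 2 with a minimum fold of 1.2 (0.579%). For si-EZH2 minus si-Control the 6 calls (2.84%) became 10 with an offset of 50 (5.14%), in the authors' values (4.73%) or with limma-trend and robust moderation (4.95%). They became 3 with median scaling (2.83%) or no filter (1.38%). With only the groups compared (1.75%) or with chip section (1.65%) 1 was left, and with a minimum fold of 1.2 (0.498%) 0. For EZH2 re-expression minus si-EZH2 the 2 calls (2.88%) became 5 with limma-trend (6.13%), an offset of 50 (6.39%) or no background correction (5.84%). They were also 5 under the stricter detection filter, p under 0.01 on all 12 arrays (8.61%), or in the authors' values (5.8%). They became 0 with no filter (1.25%), only the groups compared (1.74%), chip section (1.52%) or a minimum fold of 1.2 (0.0858%). For T350A re-expression minus si-Control the 2 calls (3.56%) became 11 with no background correction (6.35%), an offset of 50 (7.08%) or limma-trend (6.59%). They became 10 in the authors' values (6.5%) or under the stricter filter (9.63%). With 1 probe per gene (6.65%) they were 5, with no filter (1.65%) 4 and with a minimum fold of 1.2 (0.21%) 0. The F-test's 9 calls (6.82%) became 17 in the authors' values (13%) or with limma-trend (13.3%), no background correction (12.7%) or an offset of 50 (13.8%). They became 16 under the stricter filter (18%) and 2 with chip section (2.99%). The cause of these changes was not tested, except that the minimum fold asks for more by its construction. Leaving out 1 array at a time gave 8 to 12 calls for EZH2 re-expression minus si-Control (3.53% to 7.29%) and 0 to 5 for si-EZH2 minus si-Control (1.7% to 2.76%). It gave 0 to 3 for EZH2 re-expression minus si-EZH2 (0.871% to 2.92%), 2 to 6 for T350A re-expression minus si-Control (1.48% to 3.65%) and 5 to 9 for the F-test (3.73% to 6.4%). The count of 6 came without si-EZH2 replicate 2. T350A re-expression minus EZH2 re-expression and minus si-EZH2 gave 0 calls under each alternative run, where at most 0.214% and 1.8% of all tested probes were called.

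With the replicate number as a block the calls were 12, 6, 2, 3, 0 and 0 for EZH2 re-expression minus si-Control, si-EZH2 minus si-Control, EZH2 re-expression minus si-EZH2, T350A re-expression minus si-Control, T350A re-expression minus si-EZH2 and T350A re-expression minus EZH2 re-expression, and 10 by the F-test. In the same order 6.59%, 2.58%, 2.45%, 3.19%, 0.0515% and 0.00858% of all tested probes were called, and 5.76% by the F-test. The numbers did not pair the arrays. With 1 probe per gene the median of the listed genes in EZH2 re-expression minus si-Control was 0.0824, and under median scaling the median in EZH2 re-expression minus si-EZH2 was -0.0038. Probes near the detection floor, such as those of MDM4 and CCNG1 ILMN_2380754, limit what a difference there can show.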
